A study of Homo sapiens with 3 samples.

Results

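The genes described here are 10 genes whose annotated exons lie opposite exons of a cytosolic ribosomal protein gene: FAM69A, CAND2, MGC16275, PTPN11, KANK3, NKIRAS1, SH3D19, DNASE1L1, ATG10 and LRR1. They were taken from a list of names and found in all 3 count tables, among 26485 gene names. On GENCODE release 29, each of the 10 shared at least 1 exonic base on the opposite strand with exactly 1 of the 79 cytosolic ribosomal protein genes, its partner. The rule on shared exons alone reached 27 genes in these tables, so the list holds 10 of 27.

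The data were gene-level read counts of 3 RNA sequencing libraries of HEK293, an adenovirus-transformed line from human embryonic kidney, all of 1 condition and grown in medium with fetal calf serum. The libraries formed 1 group (n = 3), so the study holds no contrast between conditions, and the comparisons below set each gene beside its partner, its relatives and the other genes of the tables. Nothing in the labels says that the replicates were separate cultures, so each spread and p-value describes these 3 libraries and may be technical. The kit named in the labels keeps the strand of the RNA, but the labels do not state which strand the read counter was told to use. A count under a gene name may thus hold reads from the strand opposite that gene. The counts alone cannot tell which strand was counted. This limit holds for every level, share and rank below, those of the relatives and pathway genes included.

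Ribosomal protein genes are short, strongly transcribed genes that make the protein subunits of the ribosome. Their messenger RNAs are among the most abundant in dividing cells. The counts of these libraries did not show this abundance, as given below. A pair of genes on opposite strands can meet at their 3′ ends (tail to tail), meet at their 5′ ends (head to head), or have one gene lie inside the other. In each layout some transcripts of one gene are complementary to transcripts of the other, so a strand-aware count is needed to give each gene its own reads.

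Gene-assigned counts were 412066, 483114 and 289241 in replicates 1, 2 and 3, or 2.02% ± 0.396 of all counted records (SD, n = 3), and 1 count stood for 2.29 to 3.30 CPM. Records that met no feature made up 91.2% ± 0.472, and TSIX alone took between 17.1% and 28.5% of the gene-assigned counts of a library. CPM means counts per 1000000 of the TMM effective library size, and CPM per kilobase is that value divided by the length of the merged exons of the gene. For a gene at 0 counts the upper limit is the value of 3 counts, 6.86 to 9.89 CPM, which covers counting error alone. Of the markers listed for HEK293, LIN28A had 49, 49 and 19 counts, NEFL 16, 12 and 22, LIN28B 10, 7 and 2, GATA2 8, 6 and 3, NEFM 0, 1 and 0, and the kidney factor PAX2 none. All 7 markers of blood, red cells, liver, fibroblasts and endothelium had 0 counts in every library. None of these 7 has an exon of another annotated gene on the opposite strand. Of 16793 matched names without such an exon, 7853 had a count, and their median was 0 CPM. These zeros are thus a usual value here and say little about which cells were present.

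The layouts of the pairs come before the levels. Counts per gene do not say which reads fell in a shared stretch, so the part these stretches play in a count was not tested. In 6 pairs the genes met tail to tail, in 2 they met head to head (PTPN11 with RPL6, LRR1 with RPS29), and in 2 the ribosomal protein gene lay inside the body of the other gene (RPL32 in CAND2, RPL15 in NKIRAS1). The shared exonic length ran from 111 bases for PTPN11 with RPL6 to 1649 bases in 5 blocks for DNASE1L1 with RPL10, which is 39.9% of the exonic bases of DNASE1L1. Shared bases made up 26.8% of the exons of MGC16275 and 19.8% of those of LRR1, and between 1.58% and 13% of those of the other genes. In some pairs only 1 ribosomal protein transcript carried the overlap: 1 of 12 for RPL5, 1 of 8 for RPL32, 1 of 8 for RPL38, 1 of 13 for RPL6 and 1 of 8 for RPS29. Between lay RPL15 with 4 of 17, RPL10 with 7 of 18 and RPS28 with 2 of 4. RPS3A and RPS23 stood at the other end, with 13 of 14 and 7 of 8 transcripts, and there the overlap was carried by 1 of 13 SH3D19 transcripts and 2 of 9 ATG10 transcripts. With the GENCODE basic set of transcripts alone, 5 pairs kept an overlap (those of CAND2, MGC16275, KANK3, NKIRAS1 and DNASE1L1) and 5 had none.

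**Figure D1:**
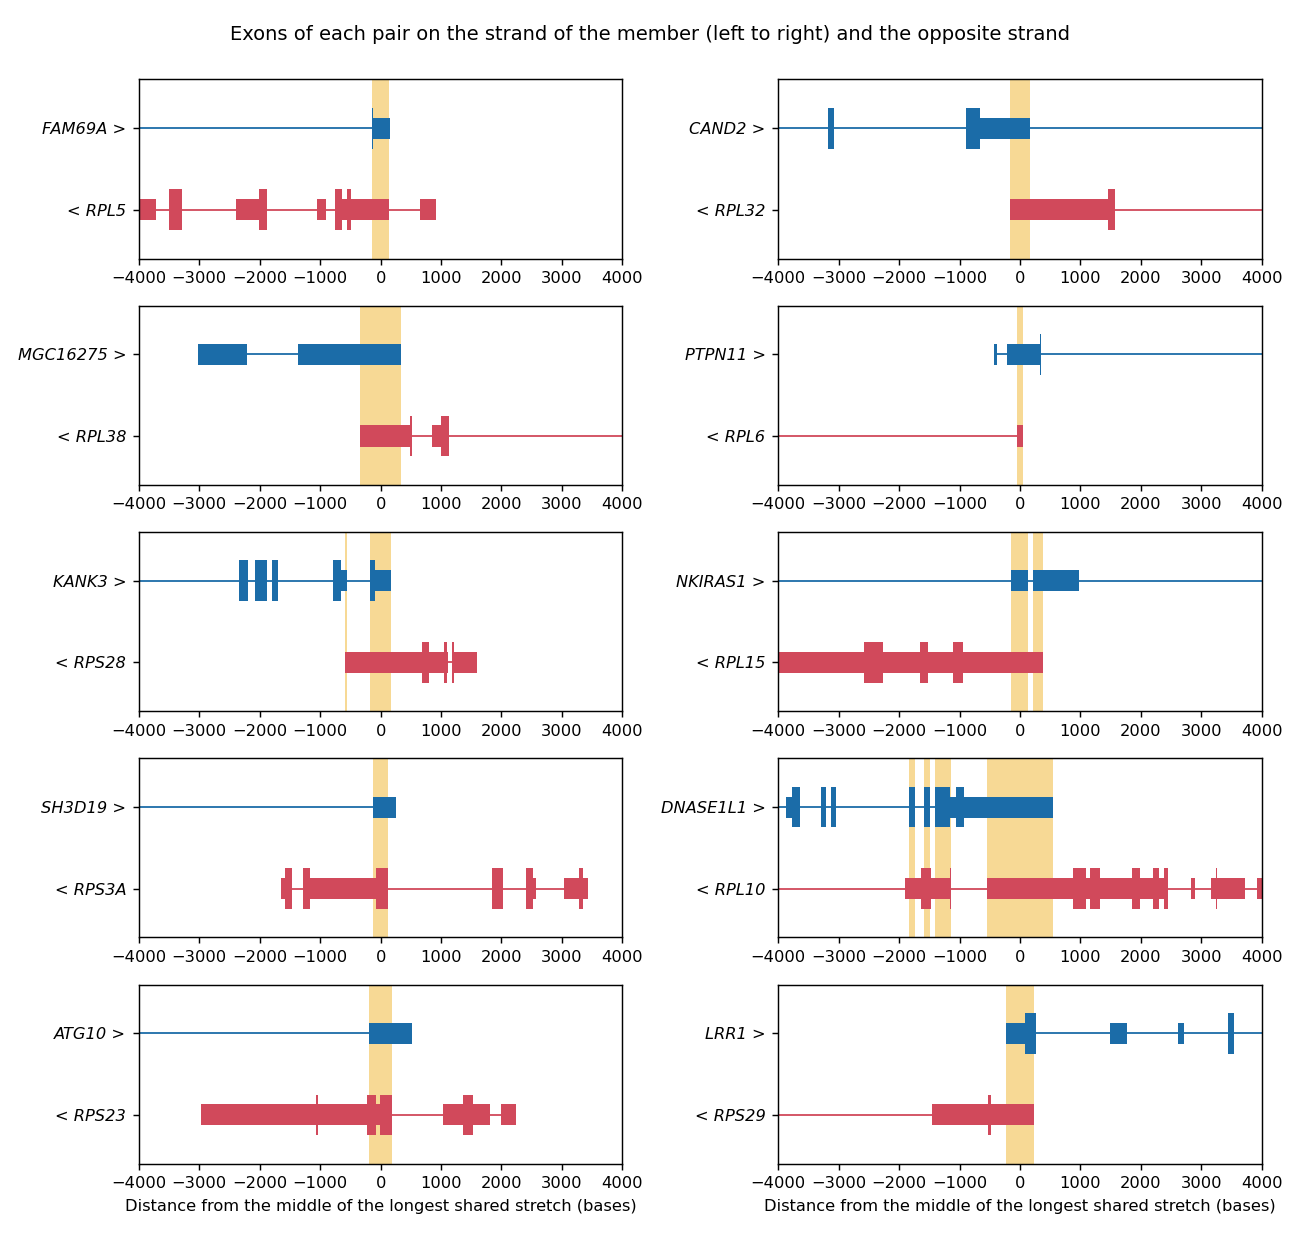
Merged exons of each of the 10 genes (blue, upper row, read left to right) and of its ribosomal protein partner (red, lower row, read right to left), by distance in bases from the middle of the longest shared stretch. Tall boxes are coding bases, low boxes other exonic bases, thin lines the rest of the gene, and yellow bands the shared exonic bases. These are most for DNASE1L1 with RPL10 (1649 bases in all) and fewest for PTPN11 with RPL6 (111 bases). Each panel is cut to the region around the longest shared stretch, so distant exons are not drawn. A shared block of 70 bases of DNASE1L1 with RPL10 is among those left out.

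Windows of 30 bases from GENCODE 29 transcripts (GRCh38) are printed 5′ to 3′ for 7 pairs, each gene on its own strand, to show which functional bases of one gene are read backwards in the other. In 3 pairs the window holds an end of the protein-coding part of a transcript of the non-ribosomal gene, in capitals. The stop codon of FAM69A-204 lay at chr1:92833005-92833034 within an exon of RPL5-203. Of 5 FAM69A transcripts, FAM69A-204 alone overlapped RPL5, and 12 coding bases of FAM69A were shared. The KANK3-201 stop codon lay at chr19:8322826-8322855 within RPS28-203, and the LRR1-201 start codon at chr14:49599008-49599037 within RPS29-203.
FAM69A (minus strand): gaccagcaccggTAAttgtgccaaactttt
RPL5 (plus strand): aaaagtttggcacaaTTAccggtgctggtc
KANK3 (minus strand): acccccaggttcagTAAgctgcctcgtctg
RPS28 (plus strand): cagacgaggcagcTTActgaacctgggggt
LRR1 (plus strand): gccgttgggcgagATGaagctacactgtga
RPS29 (minus strand): tcacagtgtagcttCATctcgcccaacggc

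In 1 pair the window lies where the non-ribosomal transcript ends, and capitals mark the 15 bases that both genes share there. The MGC16275 window was chr17:74209980-74210009 with RPL38 at chr17:74209965-74209994. The last 15 annotated bases of MGC16275 are a run of A, read as a run of T in RPL38.
MGC16275 (minus strand): tctcaaagaaagaaaAAAAAAAAAAAAAAA
RPL38 (plus strand): tgccttcctgtgtctTTTTTTTTTTTTTTT

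The remaining windows show the ribosomal protein gene's own elements inside an exon of the other gene. The last 30 bases of RPL10-204, at chrX:154402310-154402339, hold AATAAA, the usual polyadenylation signal, in capitals, which DNASE1L1-206 carries in reverse complement. Searched on the transcript strand alone, AATAAA was present in the last 30 bases of 30.6% of 83129 protein-coding transcripts, and its reverse complement, TTTATT, in 2.81%. Codon 153 of RPS3A lies opposite SH3D19-213 at chr4:151102961-151102990, and codon 75 of RPS23 opposite ATG10-209 at chr5:82276444-82276473, each codon in capitals.
DNASE1L1 (minus strand): gcagatatgccaatgggccatgTTTATTgt
RPL10 (plus strand): acAATAAAcatggcccattggcatatctgc
SH3D19 (minus strand): gtgctgagcataagaGGTcttccgtatctg
RPS3A (plus strand): cagatacggaagACCtcttatgctcagcac
ATG10 (plus strand): ttcttgccattcttGATcagctggaccctt
RPS23 (minus strand): aagggtccagctgATCaagaatggcaagaa

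The 10 genes differed widely in level. All had at least 1 count in every library, and 5 of the 10 (FAM69A, MGC16275, CAND2, DNASE1L1 and KANK3) reached 10 counts in every library, a level that 9.68% of all names and 21.7% of names with an exon of any annotated gene on the opposite strand reached. NKIRAS1, SH3D19, PTPN11, ATG10 and LRR1 fell below 10 counts in at least 1 library. In bulk RNA such as this, fewer cells with a transcript and less of it per cell cannot be told apart. Together the 10 names held 633, 640 and 467 counts in replicates 1, 2 and 3, against 244, 169 and 183 for their partners, and made up 0.149% ± 0.0150 of gene-assigned counts (SD, n = 3).

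**Figure D2:**
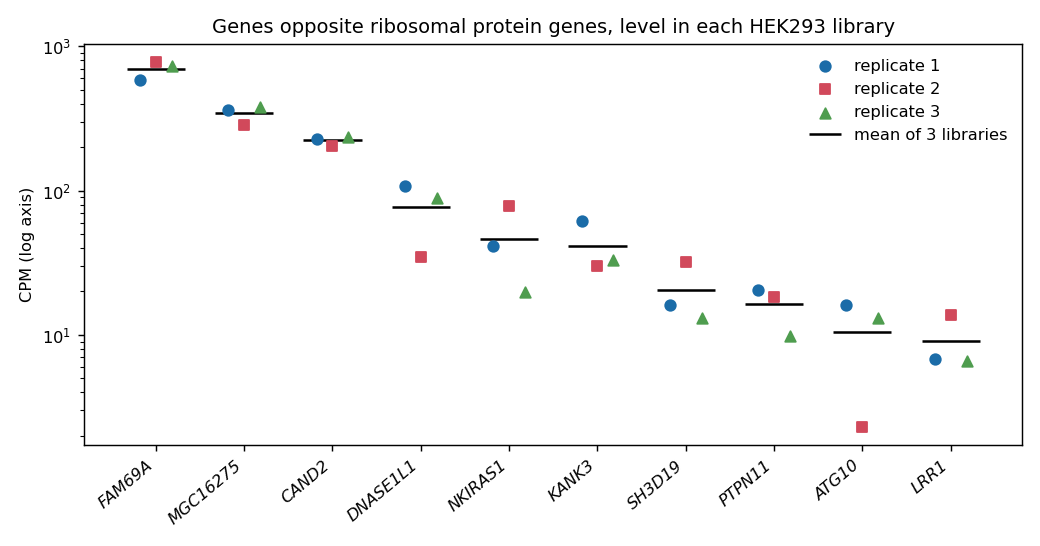
CPM on a log axis of each of the 10 genes in the 3 HEK293 libraries (symbols) with the mean (bar). FAM69A averaged 700 CPM and LRR1 9.09 CPM, and replicate 2 (square) lay apart from the other libraries for DNASE1L1 and ATG10, low, and for SH3D19 and LRR1, high.

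Among the signalling genes, both had low counts and an order against the partner that changed with the library. PTPN11 (chr12:112418351-112509913, plus strand) encodes SHP2, a tyrosine phosphatase that carries signals from growth factor receptors to RAS and ERK. It had 9, 8 and 3 counts, or 16.3 ± 5.65 CPM (SD, n = 3), against 21, 5 and 5 counts for its partner RPL6. The PTPN11 share of the pair was thus 30% in replicate 1, 61.5% in replicate 2 and 37.5% in replicate 3, with exact 95% intervals of 14.7% to 49.4%, 31.6% to 86.1% and 8.52% to 75.5%. These intervals overlap, and with 8 counts in the pair in replicate 3 it was below the minimum for a test. PTPN6, the related phosphatase SHP1, which is known from blood cells, had 0, 3 and 0 counts.

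NKIRAS1 (chr3:23891660-23946591, minus strand) encodes a small RAS-like protein that binds the inhibitors of NF-kB. It had 18, 34 and 6 counts (46.4 ± 29.7 CPM), while RPL15, which lies inside its gene body, had 44, 21 and 38. The NKIRAS1 share was 29%, 61.8% and 13.6%, so NKIRAS1 was above RPL15 in replicate 2 and below it in replicates 1 and 3. That share differed between the libraries beyond counting noise (Freeman-Halton exact test, adjusted p = 0.000118 over 1426 opposite-strand pairs). Left out in turn, replicate 1 gave an adjusted p of 0.000227, replicate 2 of 0.467 and replicate 3 of 0.0166, so the call rests on replicate 2. Per kilobase the mean log2 ratio of NKIRAS1 to RPL15 was -0.02 ± 1.67 (SD, n = 3), and it turned to 0.08 without replicate 1 and 0.76 without replicate 3.

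Of the genes of ubiquitin-like conjugation, CAND2 was well counted and LRR1 and ATG10 were near the limit of detection. CAND2 (chr3:12796472-12871916, plus strand) is the relative of CAND1, which exchanges the substrate receptors of cullin ubiquitin ligases. It had 100, 88 and 72 counts, or 223 ± 17.9 CPM, against 11, 19 and 17 counts for RPL32. The CAND2 share of the pair was 90.1%, 82.2% and 80.9% in replicates 1, 2 and 3, above RPL32 in every library, and did not pass the test of a difference between libraries (exact test, adjusted p = 0.308). Per kilobase the log2 ratio to RPL32 was 1.89 ± 0.59. Of the 5 well-counted genes, CAND2 had the smallest SD relative to its mean.

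LRR1 (chr14:49598697-49614672, plus strand) encodes a substrate receptor of a CUL2 ligase that acts when replisomes are taken apart. It had 3, 6 and 2 counts, against 1, 0 and 1 for RPS29. The exact 95% interval of its share reached as low as 54.1% in replicate 2, where all 6 counts were under LRR1, and as low as 9.43% in replicate 3, so the balance of this pair is poorly known. ATG10 (chr5:81972025-82276857, plus strand) encodes the E2-like enzyme that joins ATG12 to ATG5 in autophagy. It had 7, 1 and 4 counts, below the 13, 19 and 14 counts of RPS23 in every library. The ATG10 share was 35%, 5% and 22.2%, lowest in replicate 2, with an exact test that did not pass (adjusted p = 0.186).

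FAM69A and DNASE1L1 lay on opposite sides of their partners. FAM69A (chr1:92832737-92961522, minus strand) belongs to a small family of kinase-like proteins of the secretory pathway. With 257, 337 and 223 counts, or 700 ± 99.5 CPM, it was the highest of the 10 genes and lay at the 98.8th percentile of names with a count. RPL5 had 34, 10 and 16 counts, so FAM69A held 88.3%, 97.1% and 93.3% of the pair. Per kilobase the log2 ratio of FAM69A to RPL5 was 4.18 ± 1.07. The share differed between libraries (exact test, adjusted p = 0.00228), and this call was lost without replicate 1 (0.269) and without replicate 2 (0.358) but held without replicate 3 (0.00162).

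DNASE1L1 (chrX:154401238-154412112, minus strand) encodes a member of the DNase I family and also has exons opposite TAZ. It had 47, 15 and 27 counts, or 77.0 ± 37.9 CPM, against 97, 78 and 76 counts for RPL10, the highest of the partners. Its share was 32.6%, 16.1% and 26.2%, below the partner in every library, and the difference between libraries did not pass (exact test, adjusted p = 0.0923). Per kilobase the log2 ratio of DNASE1L1 to RPL10 was -1.41 ± 0.67. This was the pair with the most shared exon, and the only one in which coding bases of both genes were shared, 463 of DNASE1L1 and 189 of RPL10.

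Both adaptor and scaffold genes were modest in level. KANK3 (chr19:8322584-8343262, minus strand) belongs to a family of ankyrin-repeat proteins that act on the actin cytoskeleton. It had 27, 13 and 10 counts (41.5 ± 17.5 CPM), against 1, 3 and 2 for RPS28, and held 96.4%, 81.2% and 83.3% of the pair. RPS28 also shares 89 exonic bases with NDUFA7 on the opposite strand, which had 0, 1 and 0 counts. SH3D19 (chr4:151102751-151325632, minus strand) encodes a protein with SH3 domains that binds ADAM proteases. It had 7, 14 and 4 counts (20.5 ± 10.3 CPM), against 20, 13 and 13 for RPS3A, and was above the partner in replicate 2 alone, by 1 count. Neither share passed the exact test (adjusted p = 0.354 for KANK3 and 0.266 for SH3D19).

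MGC16275 (chr17:74209980-74213342, minus strand) is annotated as an antisense RNA gene, the only one of the 10 that is not protein-coding. It had 158, 124 and 116 counts, or 343 ± 50.7 CPM, against 2, 1 and 1 counts for RPL38. It held 98.8%, 99.2% and 99.1% of the pair, with a lower exact 95% bound of at least 95.3% in each library. The log2 ratio per kilobase of MGC16275 to RPL38, 7.10 ± 0.29, was the highest of the 10 pairs.

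**Figure D3:**
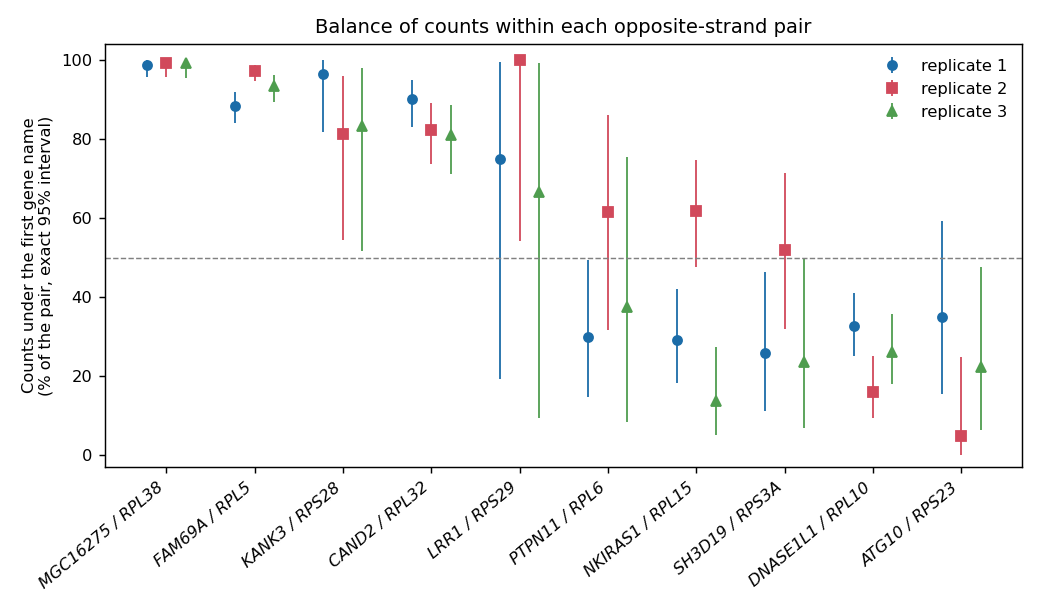
Percent of the counts of each pair that fell under the first gene name, in each of the 3 HEK293 libraries, with exact 95% intervals for counting error and a dashed line at equal counts. MGC16275, FAM69A, KANK3, CAND2 and LRR1 lie above the line in every library, DNASE1L1 and ATG10 below it, and PTPN11, NKIRAS1 and SH3D19 cross it in replicate 2.

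Set together, 5 of the 10 genes had more counts than their partner in every library, 2 had fewer (DNASE1L1 and ATG10), and 3 changed place (PTPN11, NKIRAS1 and SH3D19). An exact sign-flip permutation test of a ratio cannot go below p = 0.25 here, so no p is given for these orders. Over the 1426 opposite-strand pairs with at least 10 counts in every library, 1 gene was higher than the other in every library in 90.4%, and this held for 6 of the 8 pairs described here that reached that minimum. A share of at least 90% for the same gene in every library was found in 44.3% of the 1426 pairs and in 1 of the 8, MGC16275 with RPL38. With a share of at least 80% these were 60.7% and 4 of the 8, and without replicate 1 the 90% share was found in 49.3% and in 2 of the 8. The share differed between libraries in 13.3% of the 1426 pairs and in 2 of the 8, FAM69A with RPL5 and NKIRAS1 with RPL15. In 6 of the 10 pairs the share of the non-ribosomal gene was highest in replicate 2. This was not counted over all pairs, so it was not shown to be particular to these. For MGC16275 the shares were 98.8%, 99.2% and 99.1%, and LRR1 had 6 counts against 0 in replicate 2. Without replicate 2 the exact test called 39 of 1481 pairs and 0 of these 8, with 0 of the 8 at an unadjusted p under 0.05.

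Per kilobase of exon, FAM69A (226 ± 32.2 CPM per kilobase) stood above MGC16275 (136 ± 20.1), which stood above CAND2 (39.9 ± 3.21), and CAND2 above DNASE1L1 (18.6 ± 9.17), with ranges over the 3 libraries that did not overlap from one to the next. DNASE1L1, NKIRAS1 (13.4 ± 8.54) and KANK3 (11.6 ± 4.88) overlapped with their neighbours in this order. KANK3 lay above LRR1 (3.85 ± 1.74) without overlap. From LRR1 down to SH3D19 (2.63 ± 1.32), PTPN11 (2.32 ± 0.805) and ATG10 (1.93 ± 1.33) the ranges overlapped from one to the next, although LRR1 was above SH3D19 within each of the 3 libraries.

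Variation between the libraries was tested with edgeR's Poisson fit on the 2564 names with at least 10 counts in every library. FAM69A (adjusted p = 0.00661) and DNASE1L1 (adjusted p = 0.000595) varied beyond counting noise, 2 of the 5 genes tested, beside 45.8% of all names tested. FAM69A was highest in replicate 2, at 777 CPM, against 587 and 735 CPM in replicates 1 and 3. DNASE1L1 was lowest there, at 34.6 CPM, against 107 and 89.0 CPM. MGC16275 (0.0925), KANK3 (0.101) and CAND2 (0.642) did not pass in the same edgeR test. Without replicate 2 neither gene passed (edgeR adjusted p = 0.103 for FAM69A and 0.691 for DNASE1L1), with 1 at an unadjusted p under 0.05, and FAM69A also lost its call without replicate 1 (0.691). With libraries scaled by total counts, FAM69A did not pass (edgeR adjusted p = 0.117) and MGC16275 (0.00144) and KANK3 (0.0397) did.

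Relatives of 7 of the genes, chosen for related sequence or enzyme class and not for an overlap with a ribosomal protein gene, give a second frame. Of these 12 relatives, 7 had no opposite-strand exon of any other annotated gene and a median of 0.244 CPM per kilobase, and 5 had one and a median of 9.23 CPM per kilobase. KANK3, at 11.6 ± 4.88 CPM per kilobase, stood beside 0.129 ± 0.224 for KANK1, 0.244 ± 0.221 for KANK2 and 0.638 ± 0.795 for KANK4. CAND2, at 39.9 ± 3.21 CPM per kilobase, stood beside 2.05 ± 1.78 for CAND1, which had 18, 0 and 13 counts. FAM69A was above FAM69B in every library, with 226 ± 32.2 against 115 ± 20.8 CPM per kilobase, and FAM69C had no count. FAM69B shares exonic bases with SNHG7 on the opposite strand.

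The DNase and autophagy genes were closer to their relatives. DNASE1L1, at 18.6 ± 9.17 CPM per kilobase, was above DNASE1 (9.23 ± 0.402) and DNASE1L2 (12.9 ± 0.560) in replicates 1 and 3 and below both in replicate 2, and DNASE1L3 had no count. ATG10, at 1.93 ± 1.33 CPM per kilobase, lay beside ATG3 (2.72 ± 0.908), the E2-like enzyme of the LC3 branch, and was above it in 2 of 3 libraries. ATG10 had 7, 1 and 4 counts against 6, 10 and 4 for ATG3, so their order in replicates 1 and 3 is poorly known. In replicate 3 the counts were equal and exon length alone set the order. NKIRAS1 was above NKIRAS2 in every library, with 13.4 ± 8.54 against 2.84 ± 2.70 CPM per kilobase. In measured values, the genes were above their relatives without an opposite-strand exon in every library in 7 of 7 comparisons, and above those with one in 2 of 5. Of these 7 relatives, 2 had no count in any library, and KANK1, KANK2 and KANK4 were all set beside KANK3. Over all matched names without an opposite-strand exon the median was 0 CPM, against 6.11 CPM over names with one. The order was thus not shown to be particular to these genes. The order of PTPN11 and PTPN6 in replicate 3 rests on 3 counts against 0, within the limit that 0 counts allow. The part that overlap with other genes plays in these levels was not tested.

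**Figure D4:**
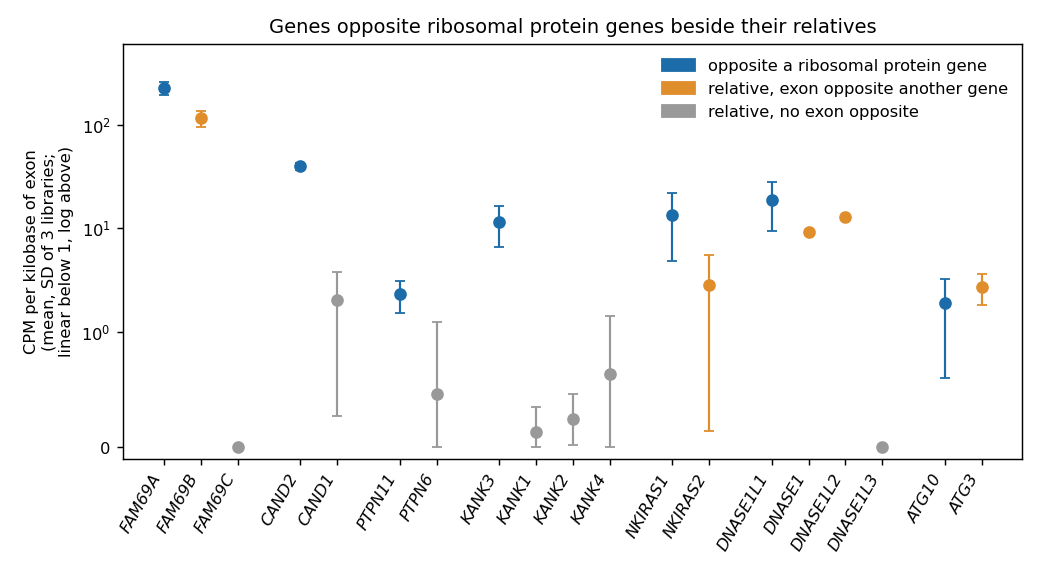
CPM per kilobase of merged exon (mean and SD of 3 libraries, lower bars ending at 0) of 7 of the genes (blue), of relatives with an exon opposite another gene (orange) and of relatives with none (grey), on an axis that is linear below 1 and logarithmic above. Grey relatives lie between 0 and 2.05 CPM per kilobase, orange ones between 2.72 and 115.

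The 17 other genes that share exons with a ribosomal protein gene on the opposite strand spanned a wider range, between 0 and 2288 CPM. The median of mean CPM was 44.0 for the 10 genes, 17.3 for the 17 others, 6.11 for the 7798 names with any opposite-strand exon and 1.10 for all names. Among the 17, CCDC84, which shares 47 bases with RPS25, had 991, 898 and 767 counts, and WDR38, which shares 11 bases with RPL35, had 669, 413 and 407. Both were above every one of the 10 genes in mean CPM. The next were TLCD1 (162 CPM), RNF207 (103), ST5 (77.7), CLHC1 (52.5), LONP1 (41.9), SPHK2 (23.7), MRPL49 (17.3) and TRAPPC4 (14.3), and VPS52 had no count. In every library, 6 of the 17 had at least 10 counts, and 6 of the 17 were above their partner in every library, beside 5 of the 10 for each measure.

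Length of the shared stretch did not order the levels. Spearman's rho between shared exonic bases and mean CPM was 0.10 over the 10 genes and -0.04 over all 27, and between CPM per kilobase of gene and partner it was 0.18 over the 10 pairs. These are descriptions across genes counted in the same libraries. Partners of the 10 genes had a median of 39.7 CPM, and the 48 ribosomal protein genes with no opposite-strand exon had a median of 18.9 CPM. The maxima were 217 and 337 CPM, so the abundance known from dividing cells was not seen in these counts. Each share and ratio to a partner is to be read with these values. The cause was not tested.

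**Figure D5:**
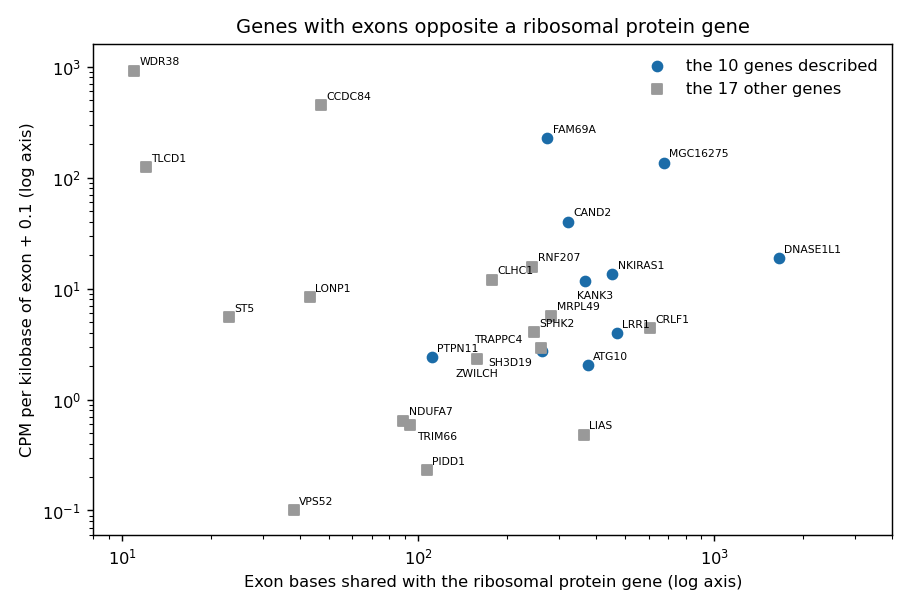
CPM per kilobase of merged exon plus 0.1 (mean of 3 libraries, log axis) against exonic bases shared with the ribosomal protein gene (log axis), for the 10 genes described (blue) and the 17 others that the rule on shared exons reaches (grey). WDR38, with 11 shared bases, lies at 919 CPM per kilobase and DNASE1L1, with 1649, at 18.6.

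Most genes of the pathways that these genes belong to fell below 10 counts in a library. Over all names, 9.68% reached 10 counts in every library, and 45.8% of the names tested varied beyond counting noise in the edgeR test. Of 17 genes around SHP2, RAS and ERK, 14 had a count and 4 reached the 10-count minimum, of which 2 varied beyond counting noise in the edgeR test. MAP2K1, the kinase that activates ERK, had 168 ± 24.2 CPM. Of 18 genes of cullin ligase assembly, 17 had a count and 4 reached the minimum. In the edgeR test 0 of these 4 passed, with 2 at an unadjusted p under 0.05 and 1 passing with DESeq2 size factors. CUL4A led with 279 ± 30.4 CPM, before DCUN1D1 (63.9 ± 23.1) and VHL (42.9 ± 18.4).

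Of 15 genes of autophagy conjugation, 13 had a count and 2 reached the minimum, of which ATG4D passed the edgeR test. ATG7, the E1-like enzyme upstream of ATG10, led with 369 ± 50.8 CPM, before ATG4D (101 ± 49.8) and ATG12 (40.5 ± 9.38), the protein that ATG10 transfers. ATG7, ATG4D and ATG12 have exons opposite VGLL4, KRI1 and AP3S1. ATG5, to which ATG12 is joined, had 1, 0 and 0 counts. Of 12 genes of NF-kB and its inhibitors, 10 had a count and 2 reached the minimum, of which REL passed. CHUK led with 124 ± 8.81 CPM, before REL (46.9 ± 21.8) and RELB (16.2 ± 4.53). CHUK has exons opposite AL138921.2, CUL4A opposite PCID2, and MAP2K1 opposite SNAPC5 and AC116913.1. DCUN1D1, VHL, REL and RELB have no opposite-strand exon. The list medians of mean CPM were 4.60, 13, 7.21 and 10.4 for the RAS, cullin, autophagy and NF-kB genes, beside 1.10 for all names. For genes with against without an opposite-strand exon, they were 143 and 3.73 (RAS) and 13.3 and 1.87 (autophagy). They were 12.9 and 10.3 for NF-kB genes, and 9.58 and 17.4 for cullin genes. The part that overlap with other genes plays in these ranks was not tested.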

How the data were processed

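The deposited tables hold raw whole-number counts per gene name for 3 HEK293 libraries, with the summary lines of the read counter (98.0% ± 0.396 of records, SD, n = 3) at the end, which entered neither library sizes nor tests. Per the labels' protocols, TRIzol total RNA was depleted of ribosomal RNA with Ribo-Zero and made into libraries with NEBNext Ultra Directional, while the titles say mRNA sequencing. Per the submitters' processing notes, Trimmomatic, TopHat2 (given as 2.2.5), HTSeq 0.11.2 and hg38 were used. No source used here gives the annotation, the strand setting or the filters.

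With edgeR 4.0.16 (R 4.3.3), CPM was computed on TMM effective library sizes. A quasi-likelihood contrast could not be fitted, since there is 1 group. Variation was tested on names with at least 10 counts in every library by the deviance of edgeR's intercept-only fit at a dispersion of 0 against chi-square, with Benjamini-Hochberg adjustment and an adjusted p threshold of 0.05. Gene names were matched to GENCODE 29 on GRCh38, 23900 by name and 691 by an older symbol, with 1894 unmatched. This annotation stands in for the one used to count. Exons of all transcripts were merged, and any exonic base on the opposite strand counted as shared, which gave 2868 pairs within the tables. Shares of pair counts carry exact Clopper-Pearson 95% intervals, which cover counting error only, and log2 ratios used a prior of 0.5 CPM. Shares were compared between libraries by the two-sided Freeman-Halton exact test, added after the counts were seen, adjusted over the 1426 pairs with at least 10 counts in every library. Python 3.11.15 with numpy 2.4.6, pandas 2.3.3, scipy 1.17.1 and matplotlib 3.10.9 was used.

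On Poisson counts simulated at the measured means, the test of variation called 0.177% of 2827 unchanged genes. It called 32.8% of 64 genes changed 1.5-fold, 83.1% of 65 changed 2-fold and 100% of 65 changed 4-fold. On pairs simulated with binomial counts, the share test called 0.220% of 1366 unchanged pairs and 40.0% of 50 pairs with the odds changed 4-fold in 1 library. Both simulations hold counting noise alone, which is what the tests assume. They give no error rate for libraries that also vary otherwise.

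The genes and lists were chosen with earlier results of these data known. Named were the 10 genes, their partners and their relatives. Also named were the 10 other genes opposite ribosomal protein genes with the highest mean CPM, and the 3 highest of each pathway list. ATG5, VPS52, NDUFA7 and the genes opposite relatives and pathway genes were named after their values were seen. Some genes that this rule names are left out. Alternatives were DESeq2 1.42.0 size factors, total counts, a total without TSIX, no count filter, a negative binomial null, a Pearson statistic, other priors, lengths, overlaps and thresholds, and leaving out each replicate.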

Additional observations from a re-analysis of the deposited data

How the results depend on the processing

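No paired analysis was possible because the series has 1 group of 3 libraries. The log2 ratio per kilobase of NKIRAS1 to RPL15, -0.02 with all libraries, ranged from -0.90 to 0.76 when 1 replicate was left out and changed sign without replicate 1 (0.08) and without replicate 3 (0.76). The number of the 10 genes that varied beyond counting noise, 2, ranged from 0 to 3 when 1 replicate was left out and was 0 in edgeR with a negative binomial null, with 1 at an unadjusted p under 0.05. Over all names this number, 1175, was 2914 with no count filter (14482 names) and 79 with the negative binomial null, and ranged from 263 to 1093 when 1 replicate was left out. With no filter NKIRAS1 also passed (edgeR adjusted p = 0.00943). Of the pairs of the 10 genes, between 0 and 2 had a share that differed when 1 replicate was left out, beside 50 of 1459 pairs without replicate 1, 39 of 1481 without replicate 2 and 81 of 1577 without replicate 3 over all pairs (190 of 1426 with all 3). With exons of protein-coding transcripts alone, 16 genes lay opposite ribosomal protein genes, 4 of the 10 among them, with a median of 44.2 CPM in place of 23.7. A total without TSIX gave 888 CPM for FAM69A, 283 for CAND2 and 436 for MGC16275, and CAND2 had 246 CPM without replicate 2. With no division by length the log2 ratio was 6.50 in place of 7.10 for MGC16275 to RPL38, -1.01 in place of -2.75 for SH3D19 to RPS3A, -1.07 in place of -0.02 for NKIRAS1 to RPL15 and 2.38 in place of 4.44 for LRR1 to RPS29. In each alternative run for it, 5 genes were above their partner in every library.

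Depth limits the low genes most: PTPN11, SH3D19, ATG10 and LRR1 had between 1 and 14 counts in a library, and 3 counts stood for 6.86 to 9.89 CPM. The cause of these changes was not tested.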
